A study of Mus musculus with 23 samples.

Results

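The 10 genes followed here, all of innate immune sensing in the cytosol, were measured on 23 arrays of mouse bone marrow-derived macrophages (BMDM). They are the NOD receptors *Nod1* and *Nod2* with their kinase *Ripk2*, the sensors *Nlrp3*, *Nlrc4*, *Nlrc5* and *Aim2*, the inflammasome adaptor *Pycard*, and the caspases *Casp1* and *Casp4*. Their probes were found by the RefSeq accession that the array design gives each probe, which led to 13 of 32869 probes with an accession and to 10 of the 25998 genes tested. All 10 genes were measured. *Nlrp3*, *Nlrc5* and *Casp4* had more than 1 probe, and each of the 13 probes was well above background on all 23 arrays.

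NOD1 and NOD2 sense fragments of bacterial peptidoglycan inside the cell and signal through the kinase RIPK2 to NF-kappaB and MAP kinases. Inflammasomes such as those of NLRP3 and AIM2 are assembled when the sensor recruits the adaptor ASC, the product of *Pycard*, which in turn activates caspase-1. This protease processes the precursors of IL-1beta and IL-18 and cleaves gasdermin D. Caspase-11, the product of mouse *Casp4*, binds intracellular LPS directly, and in macrophages both its gene and *Nlrp3* are known to be primed by signalling through TLR4.

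The study asked how the kinases MK2 and MK3, which are activated by p38 MAP kinase, shape the early answer of macrophages to LPS. BMDM were grown with M-CSF from the marrow of male C57BL/6 mice and were either kept in medium or given LPS at 100 ng/ml for 120 min. The cells came from wt mice aged 12 to 13 weeks, from mice lacking MK2 (MK2-/-) aged 10 to 13 weeks, and from mice lacking both MK2 and MK3 (MK2/3-/-) aged 11 to 14 weeks. Each of the 6 combinations of genotype and treatment was measured on 4 arrays, or on 3 in the case of MK2-/- medium. A culture of each genotype was split between medium and LPS, so that the replicates are numbered here by culture, 1 to 4, and MK2-/- medium holds cultures 1, 2 and 4. The deficiency is constitutive, and no group lacked MK3 alone.

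Promoter windows from RefSeq, of 250 bases before and 50 bases after the start site in the assembly GRCm38.p6, were at hand for 8 of the 10 genes, in 11 windows of 300 bases. *Ripk2* and *Nlrc5* were not among them. The windows were searched on both strands for the kappaB motif of NF-kappaB, for ISRE (GAAA, any 2 bases, then GAAA), for GAS (TTCNNNGAA) and for AP-1 (TGANTCA). Of 32851 promoters in the table, 4.51% held the kappaB motif, 3.44% ISRE, 8.30% GAS and 7.81% AP-1, and of the 11 windows 3 held kappaB and 1 held GAS, whereas ISRE and AP-1 were in 0. The kappaB matches lay in a window of *Nlrp3* and in both windows of *Casp4*, which overlap each other and share the match, and the GAS match lay in a window of *Nod1*. The windows shown are those of the genes whose levels moved most between groups, with the matched letters in capitals: *Nod1* (chr6:54971612-54971911, minus strand, GAS at position -193 from the start site), *Nod2* (chr8:88647097-88647396, plus strand, no match), *Nlrp3* (chr11:59541319-59541618, plus strand, kappaB read on the minus strand at -186) and *Casp4* (chr9:5308599-5308898, plus strand, a pair of overlapping kappaB matches at -93 and -92). *Nod1* and *Nlrp3* each had another window, not shown, that held no match of any of these motifs. A match describes the letters and is not a binding site, and a window without one says nothing about a factor.
Nod1: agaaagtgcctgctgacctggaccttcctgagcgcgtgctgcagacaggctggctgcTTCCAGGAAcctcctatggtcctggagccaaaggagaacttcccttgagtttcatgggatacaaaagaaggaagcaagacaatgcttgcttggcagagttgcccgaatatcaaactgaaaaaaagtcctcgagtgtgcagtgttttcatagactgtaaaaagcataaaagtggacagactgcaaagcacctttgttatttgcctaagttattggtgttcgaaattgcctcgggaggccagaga
Nod2: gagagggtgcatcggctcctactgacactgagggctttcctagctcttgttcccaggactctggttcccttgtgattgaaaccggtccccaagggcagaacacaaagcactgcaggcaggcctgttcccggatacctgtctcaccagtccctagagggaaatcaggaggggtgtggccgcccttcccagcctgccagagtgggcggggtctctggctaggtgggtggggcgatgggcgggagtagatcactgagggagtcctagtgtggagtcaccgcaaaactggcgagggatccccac
Nlrp3: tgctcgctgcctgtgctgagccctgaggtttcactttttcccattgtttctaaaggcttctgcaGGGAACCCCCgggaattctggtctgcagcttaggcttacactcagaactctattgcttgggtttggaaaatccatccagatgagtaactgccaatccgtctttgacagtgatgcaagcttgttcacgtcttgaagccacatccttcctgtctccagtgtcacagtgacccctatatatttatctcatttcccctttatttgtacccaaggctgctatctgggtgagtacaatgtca
Casp4: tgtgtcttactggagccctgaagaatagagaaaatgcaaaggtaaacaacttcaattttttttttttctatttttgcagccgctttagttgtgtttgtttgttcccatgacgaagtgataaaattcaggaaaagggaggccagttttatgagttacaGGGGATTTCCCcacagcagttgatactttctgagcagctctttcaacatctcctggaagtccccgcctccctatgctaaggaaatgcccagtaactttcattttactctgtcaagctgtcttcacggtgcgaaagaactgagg

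The genotypes were checked first. *Mapkapk2*, which encodes MK2, gave a log2 difference of -3.31 between MK2-/- and wt cells in medium (SE 0.27, limma adjusted p = 5.75e-06), and *Mapkapk3*, which encodes MK3, gave -3.30 between MK2/3-/- and wt cells after LPS. Both genes stayed above background in the deficient cells, and a probe outside a deleted stretch would still be bright. The arrays of a genotype shared a slide, its medium arrays sat in one row and its LPS arrays in the other, and the culture number set the column, so that genotype and slide, and treatment and row, cannot be told apart. Between 47.5 and 69.1% of probes were well above background, with both extremes in MK2/3-/- BMDM in medium. All 7 macrophage markers measured, out of 8 listed, were above background on every array, with sums of linear signal from 580000 to 966000. Of 4 T cell markers, *Cd3d* and *Cd8a* were above it on 0 arrays. In each group, however, 1 of the 4 was above it on every array, and their sums ran from 822 to 2300. Sums of the 6 markers of neutrophils and granulocyte precursors ran from 8970 to 18400 in column 2 and from 2990 to 7410 in the other columns, those of the 4 dendritic cell markers from 8300 to 15600 and from 1820 to 13300, and those of the 4 fibroblast markers from 539 to 106000 over all arrays. In such bulk samples, fewer cells of a type and less RNA per cell cannot be told apart.

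With LPS for 120 min, between 5 and 8 of the 10 genes rose, depending on the genotype. In wt BMDM 6 genes rose and 0 fell (*Nod1*, *Nod2*, *Ripk2*, *Nlrp3*, *Aim2* and *Casp4*), where rose and fell stand for a limma p adjusted over all genes below 0.05, beside 17.2% of all genes called, 8.26% higher and 8.89% lower. In MK2-/- BMDM 5 rose and 0 fell, the same genes without *Nod1*, beside 18.6% called, 8.50% higher and 10.1% lower. In MK2/3-/- BMDM 8 rose, with *Nlrc5* and *Casp1* added to those of wt, and *Pycard* fell, beside 24.9% called, 11.9% higher and 13.0% lower. In the order wt, MK2-/- and MK2/3-/-, the median log2 difference over the 10 genes reached 1.91, 1.21 and 2.41, whereas over all genes tested it was 0.005, -0.01 and -0.02. In each genotype the LPS arrays of 7 of the 10 genes lay entirely on one side of the medium arrays, a separation seen for 22.9, 32.8 and 26.4% of all genes. The 3 LPS comparisons use different arrays, but their differences from each other are the interactions given further on.

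**Figure D1:**
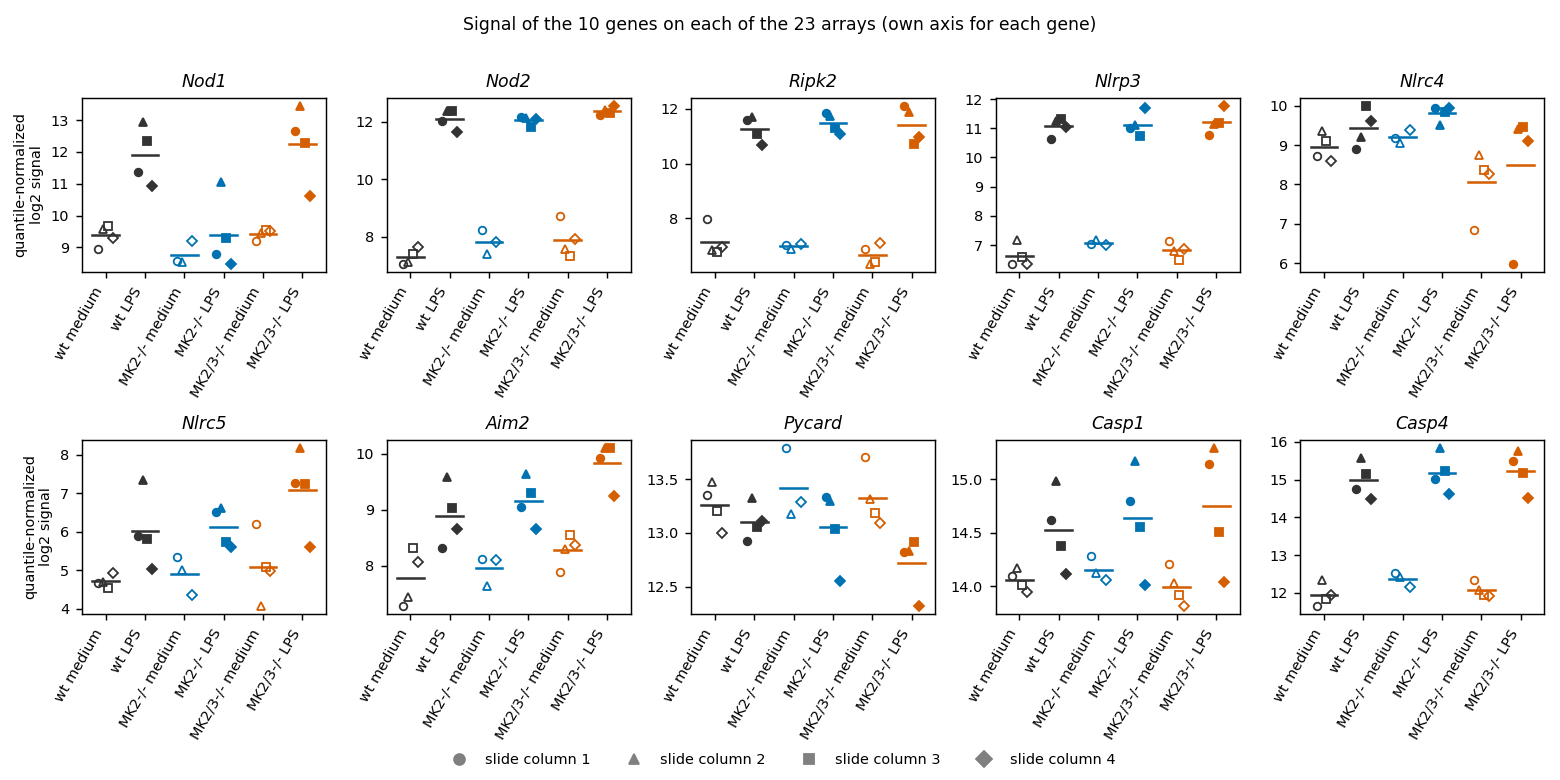
Quantile-normalized log2 signal of the 10 genes on each of the 23 arrays, 1 panel per gene with its own axis, with the 6 groups along the x axis, points for single arrays (shaped by slide column, open for medium and filled for LPS) and a bar at each group mean. LPS arrays of *Nod2*, *Ripk2*, *Nlrp3* and *Casp4* stand clear of the medium arrays in all genotypes, whereas *Nod1* in LPS-treated MK2-/- BMDM lies between 8.47 and 11.06, with 3 of its 4 arrays at the level of medium.

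Among the NOD receptors, *Nod1* (NM_172729), which recognizes peptidoglycan fragments typical of Gram-negative bacteria, was the gene with the clearest split between genotypes. In wt BMDM its log2 signal was 8.96, 9.59, 9.69 and 9.28 in medium (cultures 1 to 4) and 11.36, 12.93, 12.35 and 10.93 after LPS. In MK2-/- BMDM it was 8.56, 8.55 and 9.20 in medium (cultures 1, 2 and 4) and 8.78, 11.06, 9.29 and 8.47 after LPS. In MK2/3-/- BMDM it was 9.19, 9.46, 9.53 and 9.51 in medium and 12.66, 13.45, 12.26 and 10.62 after LPS. Thus all LPS arrays of wt and MK2/3-/- BMDM were above all medium arrays, while in MK2-/- BMDM only culture 2 showed a signal above the range of the medium arrays of the other genotypes, and culture 4 lay below its own medium array.

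*Nod1* rose 5.71-fold with LPS in wt BMDM (log2 difference 2.51, SE 0.55, limma adjusted p = 0.00287) and 7.09-fold in MK2/3-/- BMDM (2.83, SE 0.55, adjusted p = 0.000699). In MK2-/- BMDM the difference was 0.63 (SE 0.60, 95% confidence interval -0.63 to 1.88, adjusted p = 0.564). In order of mean level, LPS-treated MK2/3-/- (12.25) and wt BMDM (11.89) overlapped each other, a gap of 2.47 without overlap followed, and MK2/3-/- medium (9.42), MK2-/- LPS (9.40), wt medium (9.38) and MK2-/- medium (8.77) overlapped in turn. The mean *Nod1* signal of LPS-treated MK2-/- BMDM therefore stood among the unstimulated groups, although its culture 2 (11.06) overlapped the LPS arrays of the other genotypes.

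After LPS, 0 of the 10 genes passed the adjustment between MK2-/- and wt BMDM (0.0308% of all genes did) and 1 passed at an unadjusted p under 0.05, beside 7.50% of all genes. That gene was *Nod1*, with a log2 difference of -2.49 (SE 0.55, 95% confidence interval -3.66 to -1.33), a level 5.64-fold lower in MK2-/- BMDM, a limma adjusted p of 0.188 and an exact permutation p of 0.0571. The groups overlapped through culture 2 of MK2-/- BMDM, whose 11.06 exceeded the 10.93 of wt culture 4, and 0 of the 10 genes were free of overlap (3.72% of all genes were). Between MK2/3-/- and MK2-/- BMDM after LPS *Nod1* was the 1 gene of the 10 to pass, beside 0.162% of all genes and 0.0577% that were higher, and 3 of the 10 (*Nod1*, *Nlrc4* and *Aim2*) passed at an unadjusted p under 0.05, beside 7.91%. It was 7.22-fold higher in MK2/3-/- BMDM (log2 difference 2.85, SE 0.55, 95% confidence interval 1.69 to 4.01, adjusted p = 0.0415), with an exact permutation p of 0.0571, as culture 4 of MK2/3-/- BMDM (10.62) lay below culture 2 of MK2-/- BMDM. Between MK2/3-/- and wt BMDM the *Nod1* difference was 0.36 (95% confidence interval -0.80 to 1.52, adjusted p = 0.855).

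Compared within a slide column, that is between arrays of the same culture number, *Nod1* after LPS was lower with MK2 absent than in wt in 4 of 4 columns, by -2.58, -1.87, -3.07 and -2.46. It was higher in MK2/3-/- than in MK2-/- BMDM in 4 of 4 columns, by 3.88, 2.39, 2.98 and 2.16. Against wt, MK2/3-/- BMDM differed by 1.30, 0.52, -0.09 and -0.31, higher in 2 of 4. With the column as a term of the model, an alternative chosen after seeing the data, the adjusted p of *Nod1* was 0.0541 for MK2-/- against wt (0.0962% of all genes called) and 0.0137 for MK2/3-/- against MK2-/- BMDM (0.365% called).

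The call of *Nod1* between MK2/3-/- and MK2-/- BMDM was close to its threshold. With the culture as a block within each genotype, its adjusted p was 0.0557 and the call was lost. It passed in 14 of 38 alternative settings, with the log2 difference between 2.45 and 3.40 in all of them, and in 6 of the 23 fits that left out 1 array each: without wt medium 1, without wt LPS 2, 3 or 4, without MK2-/- LPS 2 or without MK2/3-/- LPS 4. The call of *Nod1* between MK2-/- and wt BMDM appeared when the MK2-/- LPS array of culture 2 was left out (-3.05, adjusted p = 0.0447), the array with the highest *Nod1* signal of its group.

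**Figure D2:**
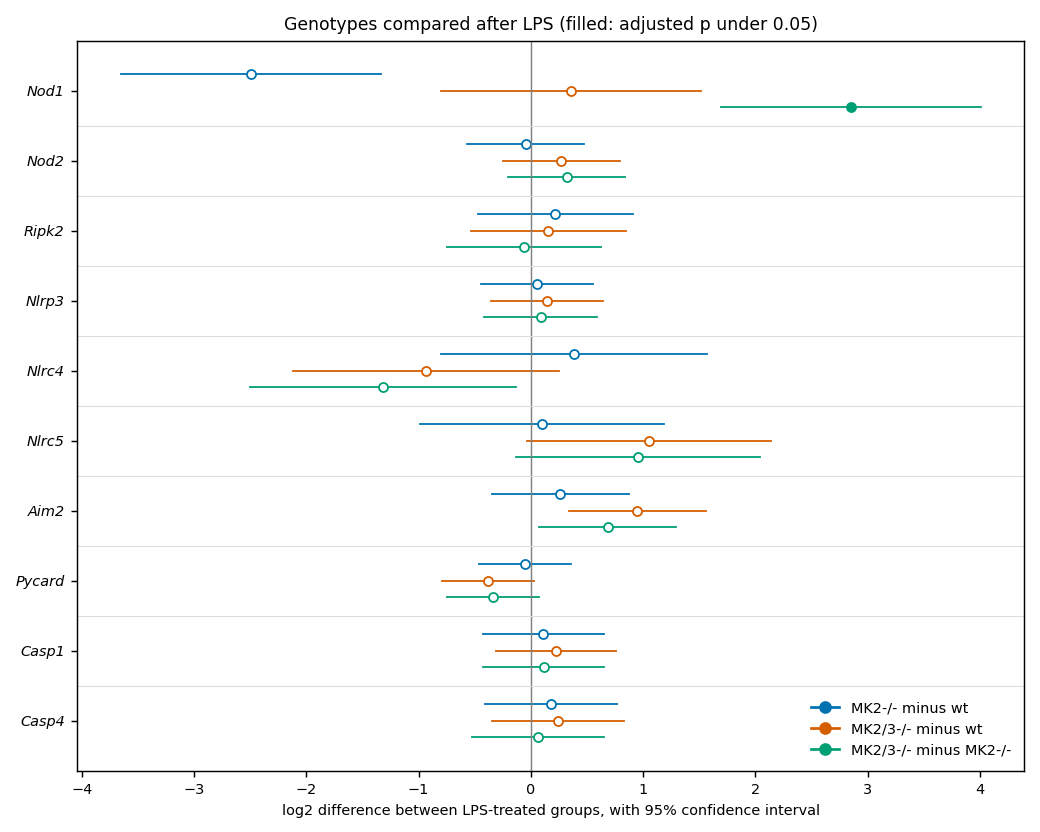
Log2 difference of the 10 genes between LPS-treated genotypes, with 95% confidence intervals, for MK2-/- minus wt, MK2/3-/- minus wt and MK2/3-/- minus MK2-/- BMDM. Filled points passed the adjusted p of 0.05, which was the case for *Nod1* between MK2/3-/- and MK2-/- BMDM at 2.85, and the intervals of *Nod2*, *Ripk2*, *Nlrp3*, *Casp1* and *Casp4* span 0 in all 3 comparisons.

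**Figure D3:**
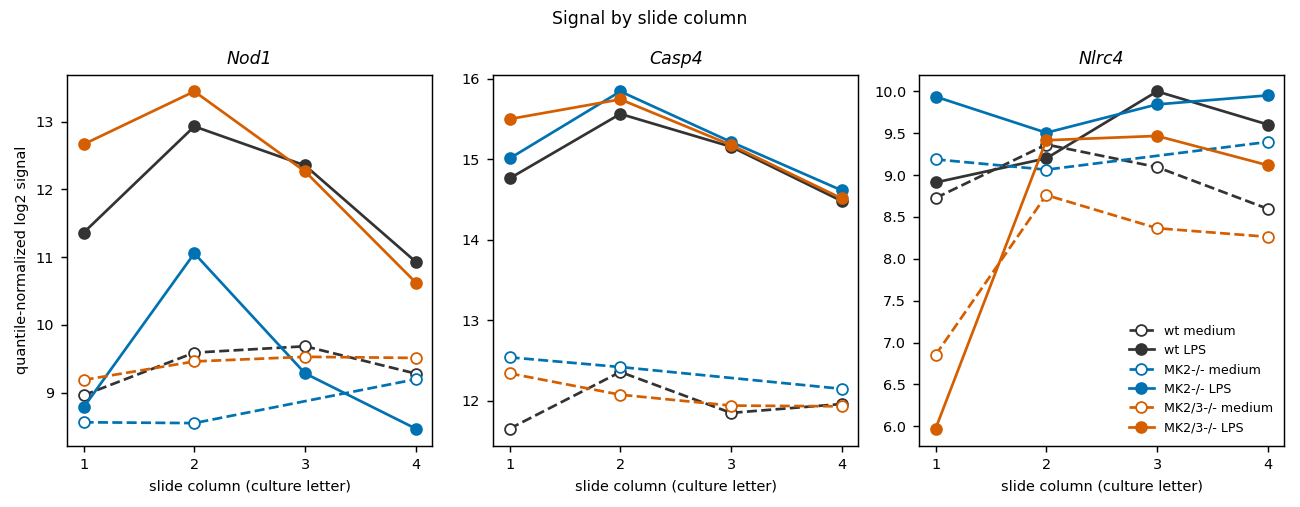
Log2 signal of *Nod1*, *Casp4* and *Nlrc4* against the slide column, which is also the number of the culture, with open points for medium, filled points for LPS and a line per group. After LPS, *Nod1* and *Casp4* are highest in column 2 and lowest in column 4 in every genotype, and *Nlrc4* is low in both MK2/3-/- arrays of column 1, at 6.85 and 5.97.

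*Nod2* (NM_145857), which recognizes muramyl dipeptide, was induced in all genotypes. Its log2 signal in wt BMDM was 7.05, 7.12, 7.40 and 7.65 in medium and 12.02, 12.37, 12.36 and 11.64 after LPS. For MK2-/- BMDM it was 8.23, 7.40 and 7.81 in medium and 12.17, 12.12, 11.82 and 12.08 after LPS. For MK2/3-/- BMDM it was 8.72, 7.56, 7.34 and 7.91 in medium and 12.22, 12.40, 12.31 and 12.55 after LPS. Every LPS array was above every medium array, whatever the genotype, and the LPS groups lay close together. *Nod2* rose 27.7-fold in wt (log2 difference 4.79, SE 0.25, limma adjusted p = 5.54e-11), 18.8-fold in MK2-/- (4.23, SE 0.27, adjusted p = 1.13e-09) and 22.4-fold in MK2/3-/- BMDM (4.48, SE 0.25, adjusted p = 1.33e-10). After LPS all 4 MK2/3-/- arrays were above all 4 MK2-/- arrays, by a mean of 0.32 with an exact permutation p of 0.0286, the smallest that 4 against 4 arrays allow, and an adjusted p of 0.813. Together with *Nlrc4*, which lay below, this made 2 of the 10 genes without overlap in that comparison, beside 5.14% of all genes. LPS-treated MK2-/- BMDM differed from wt in *Nod2* by -0.05 (95% confidence interval -0.57 to 0.47).

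*Ripk2* (NM_138952), the kinase that both NOD receptors recruit, rose in all genotypes, as *Nod2* did. Its log2 signal in wt BMDM was 7.97, 6.82, 6.74 and 6.94 in medium and 11.61, 11.71, 11.10 and 10.67 after LPS. The MK2-/- arrays gave 7.01, 6.86 and 7.04 in medium and 11.84, 11.74, 11.29 and 11.09 after LPS. The MK2/3-/- arrays gave 6.85, 6.30, 6.39 and 7.07 in medium and 12.11, 11.90, 10.72 and 10.98 after LPS. All LPS arrays lay above all medium arrays, and the 3 LPS groups overlapped each other. *Ripk2* rose 17.8-fold in wt (log2 difference 4.15, SE 0.33, limma adjusted p = 1.95e-08), 23.0-fold in MK2-/- (4.52, SE 0.36, adjusted p = 1.94e-08) and 27.4-fold in MK2/3-/- BMDM (4.77, SE 0.33, adjusted p = 2.31e-09).

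Of the inflammasome sensors, *Nlrp3* (NM_145827), which answers to a wide range of cell stress, was the one with the highest induction. The wt arrays had log2 signals of 6.35, 7.17, 6.60 and 6.37 in medium and 10.65, 11.26, 11.33 and 11.05 after LPS. MK2-/- BMDM had 7.03, 7.16 and 7.0 in medium and 11.00, 11.10, 10.72 and 11.68 after LPS. MK2/3-/- BMDM had 7.15, 6.78, 6.48 and 6.87 in medium and 10.76, 11.14, 11.18 and 11.77 after LPS. Medium and LPS arrays did not overlap in any genotype, and the LPS groups shared their range. *Nlrp3* rose 21.9-fold in wt (log2 difference 4.45, SE 0.24, limma adjusted p = 7.95e-11), 16.7-fold in MK2-/- (4.06, SE 0.26, adjusted p = 1.13e-09) and 21.0-fold in MK2/3-/- BMDM (4.39, SE 0.24, adjusted p = 1.03e-10). The second *Nlrp3* probe gave 4.06, 3.58 and 4.31. For genes with 2 probes the one with the higher induction in wt BMDM was used, a rule that favours a high value in wt.

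*Aim2* (NM_001013779), the sensor of double-stranded DNA in the cytosol, rose less than *Nlrp3*, but in all genotypes. wt BMDM showed log2 signals of 7.28, 7.44, 8.31 and 8.07 in medium and 8.32, 9.59, 9.03 and 8.65 after LPS. MK2-/- BMDM had 8.12, 7.64 and 8.09 in medium and 9.05, 9.64, 9.29 and 8.66 after LPS. Cells without both kinases had 7.89, 8.30, 8.54 and 8.37 in medium and 9.92, 10.10, 10.11 and 9.24 after LPS. Within each genotype the LPS arrays were above the medium arrays, in wt BMDM by the small margin between 8.32 and 8.31, and 3 of 4 LPS-treated MK2/3-/- arrays exceeded every other array. *Aim2* rose 2.17-fold in wt (log2 difference 1.12, SE 0.29, limma adjusted p = 0.0102), 2.31-fold in MK2-/- (1.21, SE 0.31, adjusted p = 0.00968) and 2.97-fold in MK2/3-/- BMDM (1.57, SE 0.29, adjusted p = 0.000417). The call was lost in wt without the LPS array of culture 2 (0.89, adjusted p = 0.0506) and in MK2-/- BMDM without the medium array of culture 2 (1.05, adjusted p = 0.0573).

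Between LPS-treated MK2/3-/- and wt BMDM, *Aim2* had the lowest limma p of the 10 genes, although *Pycard* was the gene without overlap. The log2 difference of *Nlrc5* was larger than that of *Aim2* on the probe used (1.06) but was 0.60 on its second probe. In that comparison 0 of the 10 genes passed the adjustment, beside 1.64% of all genes, and 1 passed at an unadjusted p under 0.05, beside 13.6%. The log2 difference of *Aim2* was 0.95 (SE 0.29, 95% confidence interval 0.34 to 1.56, limma adjusted p = 0.122) with an exact permutation p of 0.0571. Between arrays of a slide column, which share only a number across genotypes, *Aim2* was higher in 4 of 4 columns, by 1.60, 0.51, 1.08 and 0.59. Without the wt LPS array of culture 2 the log2 difference of *Aim2* was 1.18 with an adjusted p of 0.0432. With the slide column as a term the adjusted p was 0.0641.

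*Nlrc5* (NM_001033207), a regulator of MHC class I genes, was called with LPS in MK2/3-/- BMDM. In wt BMDM its log2 signal was 4.69, 4.71, 4.55 and 4.93 in medium and 5.90, 7.36, 5.81 and 5.04 after LPS. In MK2-/- BMDM it was 5.36, 5.02 and 4.37 in medium and 6.51, 6.64, 5.74 and 5.61 after LPS. In MK2/3-/- BMDM it was 6.21, 4.07, 5.08 and 4.98 in medium and 7.28, 8.19, 7.24 and 5.61 after LPS. The LPS arrays were above the medium arrays in wt and MK2-/- BMDM and spread more widely than them, while in MK2/3-/- BMDM the ranges met through medium culture 1 and LPS culture 4. *Nlrc5* rose in MK2/3-/- BMDM (log2 difference 2.00, SE 0.52, limma adjusted p = 0.00695), whereas 1.31 in wt and 1.21 in MK2-/- BMDM did not pass (adjusted p = 0.0986 and 0.157). The call in MK2/3-/- BMDM was lost on the second, brighter probe, which gave 1.17 (adjusted p = 0.130) and 0.73 and 0.89 in wt and MK2-/- BMDM, and under normexp background correction (1.18, adjusted p = 0.104). Leaving out the wt LPS array of culture 4 brought *Nlrc5* past the threshold in wt BMDM (1.64, adjusted p = 0.0409).

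*Nlrc4* (NM_001033367), which is activated through NAIP proteins by flagellin and parts of secretion systems, showed no call in any comparison. Its log2 signal in wt BMDM was 8.73, 9.37, 9.10 and 8.60 in medium and 8.91, 9.20, 10.00 and 9.60 after LPS. For MK2-/- BMDM it was 9.19, 9.07 and 9.40 in medium and 9.94, 9.51, 9.84 and 9.95 after LPS. For MK2/3-/- BMDM it was 6.85, 8.76, 8.37 and 8.26 in medium and 5.97, 9.42, 9.47 and 9.12 after LPS. Both MK2/3-/- arrays of culture 1 stood far below all others, so that the group means of MK2/3-/- BMDM rest in part on that culture. The same 2 arrays had fibroblast marker sums of 539 and 882, the lowest of the 23 arrays, and dendritic cell marker sums of 12500 and 13300. The MK2/3-/- arrays of culture 2 had dendritic cell sums of 12500 in medium and 15600 after LPS, with *Nlrc4* at 8.76 and 9.42. The part of these sums in the *Nlrc4* signal was not tested.

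For wt, MK2-/- and MK2/3-/- BMDM the LPS difference of *Nlrc4* was 0.48, 0.59 and 0.43 (SE 0.57, 0.61 and 0.57, limma adjusted p = 0.683, 0.601 and 0.662). Without both MK2/3-/- arrays of culture 1, an alternative chosen after seeing the data, it was 0.87 in MK2/3-/- BMDM and passed (adjusted p = 0.0194), and without the LPS array of that culture alone it was 1.27 (adjusted p = 0.0110). After LPS all MK2/3-/- arrays lay below all MK2-/- arrays, by a mean of -1.32 (exact permutation p = 0.0286, adjusted p = 0.557). That difference was -0.48 (adjusted p = 0.606) without the 2 arrays of culture 1, and the one between MK2/3-/- and wt BMDM went from -0.94 to -0.10. In MK2-/- BMDM all LPS arrays of *Nlrc4* lay above all medium arrays, by the margin between 9.51 and 9.40.

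*Pycard* (NM_023258), the gene of the adaptor ASC, was the gene of the 10 that fell. The wt arrays had log2 signals of 13.35, 13.47, 13.20 and 13.00 in medium and 12.93, 13.33, 13.06 and 13.11 after LPS. The MK2-/- arrays gave 13.79, 13.18 and 13.29 in medium and 13.34, 13.30, 13.04 and 12.55 after LPS. The MK2/3-/- arrays gave 13.71, 13.32, 13.18 and 13.09 in medium and 12.82, 12.83, 12.91 and 12.32 after LPS. Medium and LPS arrays overlapped in wt and MK2-/- BMDM, and in MK2/3-/- BMDM every LPS array was below every medium array. The log2 difference was -0.60 in MK2/3-/- BMDM (SE 0.20, limma adjusted p = 0.0287), lower in 4 of 4 cultures, against -0.15 for wt and -0.36 for MK2-/- BMDM (adjusted p = 0.724 and 0.282). When arrays were scaled to their 75th percentile, which moved the median of all genes up by 0.14, 0.21 and 0.09 for LPS in wt, MK2-/- and MK2/3-/- BMDM, the *Pycard* difference was -0.28 with an adjusted p of 0.477 in MK2/3-/- BMDM, and it turned to 0.18 in wt BMDM.

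The fall of *Pycard* in MK2/3-/- BMDM was also lost when the MK2/3-/- medium array of culture 1 (-0.48, adjusted p = 0.0952) or of culture 2 (-0.60, adjusted p = 0.0537) or the LPS array of culture 4 (-0.47, adjusted p = 0.0958) was left out. After LPS all 4 MK2/3-/- arrays of *Pycard* lay below all 4 wt arrays, by a mean of -0.38 (exact permutation p = 0.0286, adjusted p = 0.412). This was the 1 gene of the 10 without overlap between these groups, beside 5.81% of all genes.

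*Casp1* (NM_009807), the effector protease of the canonical inflammasomes, was already bright in medium. wt BMDM showed log2 signals of 14.10, 14.17, 14.01 and 13.94 in medium and 14.62, 14.98, 14.38 and 14.11 after LPS. MK2-/- BMDM had 14.28, 14.12 and 14.06 in medium and 14.80, 15.17, 14.55 and 14.01 after LPS. MK2/3-/- BMDM had 14.20, 14.03, 13.92 and 13.81 in medium and 15.14, 15.29, 14.51 and 14.04 after LPS. In each genotype the LPS array of culture 4 did not exceed the highest medium array, and the other LPS arrays lay above all medium arrays. *Casp1* rose 1.69-fold in MK2/3-/- BMDM (log2 difference 0.76, SE 0.26, limma adjusted p = 0.0351), while 0.47 in wt and 0.48 in MK2-/- BMDM did not pass (adjusted p = 0.262 and 0.272). The call was lost without any 1 of the MK2/3-/- medium arrays of cultures 2, 3 and 4 or the LPS arrays of cultures 1 and 2, with differences from 0.57 to 0.77 and adjusted p between 0.0600 and 0.136.

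*Casp4* (NM_007609), the gene of caspase-11, rose in all genotypes. In wt BMDM its log2 signal was 11.65, 12.36, 11.85 and 11.96 in medium and 14.76, 15.56, 15.15 and 14.48 after LPS. MK2-/- BMDM had 12.54, 12.42 and 12.15 in medium and 15.01, 15.84, 15.21 and 14.61 after LPS. Cells without both kinases had 12.34, 12.07, 11.94 and 11.93 in medium and 15.50, 15.74, 15.17 and 14.51 after LPS. The LPS arrays of every genotype lay far above the medium arrays and overlapped each other. *Casp4* rose 8.20-fold in wt (log2 difference 3.03, SE 0.28, limma adjusted p = 1.68e-07), 6.97-fold in MK2-/- (2.80, SE 0.30, adjusted p = 1.20e-06) and 8.95-fold in MK2/3-/- BMDM (3.16, SE 0.28, adjusted p = 6.44e-08). The second probe gave 2.96, 2.75 and 3.15.

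**Figure D4:**
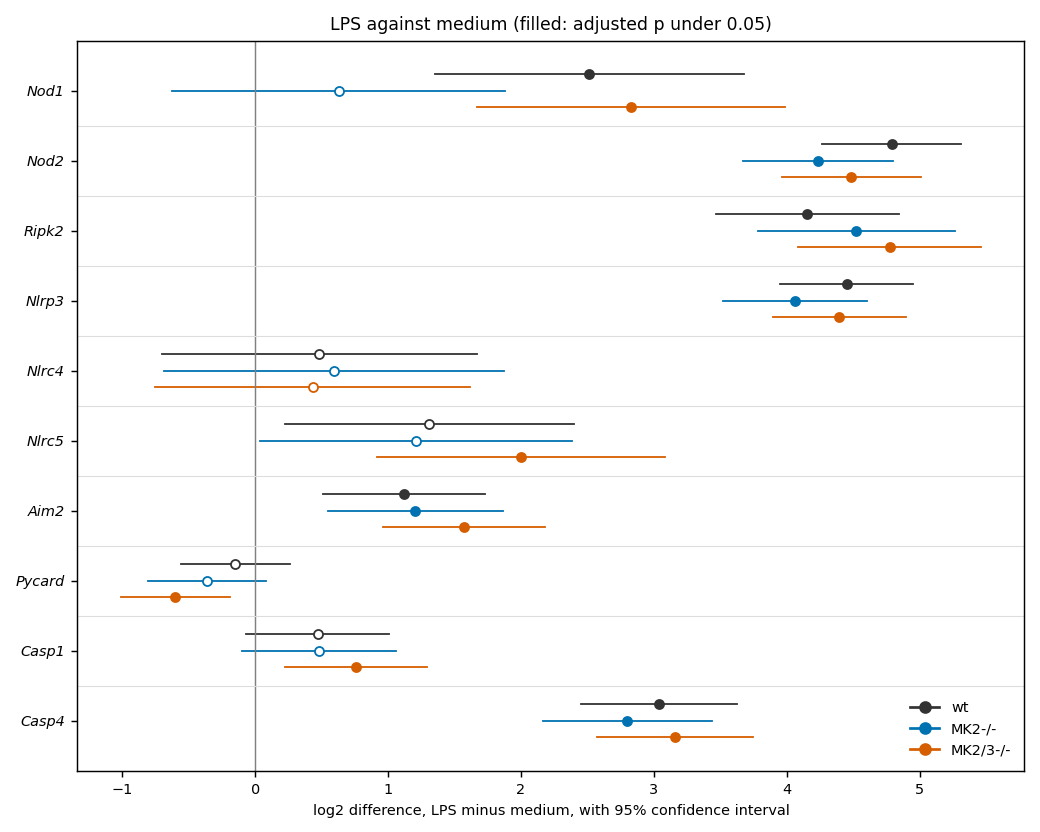
Log2 difference between LPS and medium for the 10 genes in wt, MK2-/- and MK2/3-/- BMDM, with 95% confidence intervals, where filled points passed the adjusted p of 0.05. *Nod2*, *Ripk2*, *Nlrp3* and *Casp4* lie between 2.80 and 4.79 in all genotypes, and *Nod1* is at 2.51, 0.63 and 2.83 from the top to the bottom of its row (wt, MK2-/-, MK2/3-/-).

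In medium, none of the 10 genes passed the adjustment between any genotypes, by limma and with 0, 1 and 0 genes at an unadjusted p under 0.05 for MK2-/- against wt, MK2/3-/- against wt and MK2/3-/- against MK2-/- BMDM, beside 0.00769, 0.0769 and 0.0462% of all genes called and 3.42, 4.63 and 3.55% at the unadjusted p. The 1 gene was *Nod2*, with a log2 difference of 0.58 between MK2/3-/- and wt BMDM (95% confidence interval 0.05 to 1.1). *Nod1* differed by -0.61 between MK2-/- and wt BMDM (95% confidence interval -1.86 to 0.65) and by 0.04 between MK2/3-/- and wt BMDM (-1.12 to 1.20). *Nlrc4* was the 1 gene without overlap between groups in medium, with all MK2/3-/- arrays below all MK2-/- arrays (-1.16, exact permutation p = 0.0571), beside 6.42% of all genes, and in the comparisons with wt 0 genes were free of overlap, beside 7.03% for MK2-/- and 4.05% for MK2/3-/- BMDM.

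Whether LPS acted differently in the genotypes was tested by the interaction of both factors, which none of the 10 genes passed. Of all genes, 0.00385% passed for MK2-/- against wt, 0.0115% for MK2/3-/- against wt and 0% for MK2/3-/- against MK2-/- BMDM, and at an unadjusted p under 0.05 the counts among the 10 genes were 1, 0 and 1, beside 1.91, 4.54 and 2.88% of all genes. The 1 gene was *Nod1* each time. Its LPS response was smaller in MK2-/- than in wt BMDM by -1.89 (SE 0.82, 95% confidence interval -3.60 to -0.18, adjusted p = 1) and larger in MK2/3-/- than in MK2-/- BMDM by 2.20 (SE 0.82, 95% confidence interval 0.49 to 3.91, adjusted p = 1). The call of *Nod1* with LPS in wt and MK2/3-/- BMDM and its absence in MK2-/- BMDM are therefore not a difference that passed the adjustment.

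A pattern over the cultures was shared by several of the genes. After LPS, *Nod1*, *Nlrc5*, *Casp1* and *Casp4* were highest in culture 2 and lowest in culture 4 in all 3 genotypes, which made 4 of the 10 genes. Of 25887 genes without missing values, 8.20% were highest in column 2 in all LPS groups, 5.18% were lowest in column 4 and 2.16% were both. The neutrophil marker sums of all arrays of column 2 were above those of the other columns, and the dendritic cell sums overlapped. The fibroblast sums were from 32300 to 59000 in column 4 and from 1240 to 4490 in column 2. They ran from 539 to 106000 in column 1 and from 7480 to 19800 in column 3. The part of these in the 4 genes was not tested.

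Other genes of the pathways were read from 3 lists. Of 22 genes that carry or restrain NOD signalling, 10 rose and 4 fell with LPS in wt, 8 rose and 5 fell in MK2-/-, and 10 rose and 3 fell in MK2/3-/- BMDM, with medians of 0.36, 0.26 and 0.53. Of all genes, 8.26, 8.50 and 11.9% were higher and 8.89, 10.1 and 13.0% lower in the same order, and the medians over all genes were 0.005, -0.01 and -0.02. The largest changes were in *Tnfaip3*, which encodes the ubiquitin-editing enzyme A20 that limits NF-kappaB (6.78, 6.49 and 6.66 in wt, MK2-/- and MK2/3-/- BMDM). *Birc3*, an E3 ligase that ubiquitinates RIPK2, rose by 2.37, 2.44 and 2.40. *Tab1*, an activator of the kinase TAK1, fell, with -3.01, -3.36 and -3.54. The other genes that fell were *Slc15a4*, *Otulin* and *Sharpin* in wt, these and *Rbck1* in MK2-/-, and *Otulin* and *Sharpin* in MK2/3-/- BMDM, which are named because of their values.

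Of 15 further sensors 14 were measured, and 3 rose and 2 fell in wt and in MK2-/- BMDM, while 4 rose and 1 fell in MK2/3-/- BMDM, with medians of 0.05, 0.07 and 0.36. These counts stand beside 17.2, 18.6 and 24.9% of all genes called in either direction (8.26, 8.50 and 11.9% higher), and the medians beside 0.005, -0.01 and -0.02. *Mefv*, the gene of pyrin, rose by 3.85, 3.77 and 3.52. *Zbp1*, a sensor of Z-form nucleic acids, rose by 2.85, 2.56 and 3.20, and *Ifi204*, an interferon-inducible DNA sensor, by 1.76, 1.72 and 1.92. The genes that fell, named because of their values, were *Naip2*, which detects a bacterial secretion protein for NLRC4, in every genotype and *Nlrp1b* in wt and MK2-/- BMDM, and *Nlrc3* was the further one that rose in MK2/3-/- BMDM.

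Of 18 partners and effectors of inflammasomes, 5 rose and 3 fell in wt and in MK2-/- BMDM, and 6 rose and 4 fell in MK2/3-/- BMDM, with medians of 0.09, 0.07 and 0.13, beside 0.005, -0.01 and -0.02 over all genes. The share of all genes called was 17.2, 18.6 and 24.9%, made up of 8.26, 8.50 and 11.9% higher and 8.89, 10.1 and 13.0% lower. *Il1b*, the substrate of caspase-1, rose by 8.63, 7.20 and 7.04. *Gbp5* rose by 8.23, 7.74 and 8.63 and *Gbp2* by 4.88, 4.74 and 5.73, both coding for guanylate-binding proteins that coat bacteria. Among the others that rose, named because of their values, were *Il18* and *Ninj1* in all genotypes, and those that fell were *Txnip* and *Gsdme* in all genotypes, *P2rx7* in wt, *Nek7* in MK2-/- and *Panx1* and *Brcc3* in MK2/3-/- BMDM. No gene of the 3 lists passed the adjustment in any comparison of genotypes or interaction.

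Likeness of patterns was measured over the 6 group means, each gene centred on its own mean, as the root mean square difference on the log2 scale over 15769 genes. The genes most like *Nod1* were *Ppm1k* (0.51) and *Ggct* (0.58), a distance to be read against the 3.48 between its highest and lowest group mean. *Nod2* had *Nlrp3* (0.17) and *Tnfsf10* (0.18) nearest, *Ripk2* had *Il27* (0.16) and *Pvr* (0.17), and *Nlrp3* had *Pde4b* (0.10) and *Nfkbie* (0.14). *Aim2* was closest to *Eml4* (0.10) and *Dgkh* (0.10), *Nlrc5* to *Pigv* (0.09) and *M1ap* (0.10), and *Casp4* to *Ptpn2* (0.09) and *Batf* (0.09). The distances of *Nod1* to its nearest genes were thus larger than those of the other induced genes, whose range of means was in part larger. In wt, MK2-/- and MK2/3-/- BMDM the LPS arrays of *Nod1* had SDs of 0.91, 1.16 and 1.19. Those of *Nlrc5* were 0.97, 0.52 and 1.07, and the part of such spread in the distances was not tested.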

How the data were processed

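RNA of 23 samples was hybridized with 1 dye to 23 Agilent arrays, 1 array per sample. The intensity of each spot was deposited by the authors as written by Feature Extraction 11.0.1.1, per the file headers on a linear scale, background-subtracted, corrected for gradients and not normalized between arrays, and on 2 arrays without a fit of the gradient. The log2 values that the authors deposited as a table are quantile normalized and centred on the median of each probe. Against them, the values computed here had a median absolute difference of 0.00123, and they served as an alternative.

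Control spots and spots flagged as outliers were left out, intensities were log2 transformed, spots of a probe averaged and arrays quantile normalized. Of 55681 probes, 29150 with a RefSeq and 3719 with another GenBank accession were kept, 27509 of the former were named through a RefSeq table of GRCm38.p6, and each gene was read from its probe with the strongest induction by LPS in wt BMDM. Of 1280663 probe values 258 were missing and 0 were saturated. The 6 groups were fitted on all arrays with lmFit and eBayes of limma 3.58.1 (R 4.3.3, with version 1.17.8 of data.table), and the Benjamini-Hochberg adjustment ran over 25998 genes at a threshold of 0.05. A two-sided exact permutation test over the arrays accompanied it for single genes and cannot go below 0.0286 for 4 against 4 or 4 against 3 arrays. The number of arrays limits the precision. Figures were drawn with matplotlib 3.10.9 in Python 3.11.15. The steps were tested on simulated data.

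The 10 genes, the pathway and marker lists and the tests were chosen with earlier results of these data known, and *Nod1* is a gene the study itself examined, so that its pattern is a description and no independent support. The paper also measured *Nod1* by real-time PCR. It reports a reduced level after LPS in MK2-/- BMDM and an at least partial return in MK2/3-/- BMDM. Named are the 10 genes, *Mapkapk2* and *Mapkapk3*, the 3 called genes of each pathway list with the largest LPS change in wt BMDM, and the 2 genes most like each member with a called LPS change of at least 1 on the log2 scale. Others are marked as named because of their values.

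Sample names pair the medium and LPS arrays of a genotype by culture. After removal of group means, the 11 pairs correlated with r between 0.359 and 0.776 (median 0.493) over 12568 genes well above background on all arrays, and between 0.0665 and 0.566 over 25887 genes without missing values, against medians of -0.193 and -0.0802 for 33 pairs of different cultures. Alternatives were other scalings (75th percentile, deposited values), normexp background, a floor of 5 on the signal, another choice of probe, fits of the compared groups only, the methods' t-test, the culture as a block, and each array left out in turn.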

Additional observations from a re-analysis of the deposited data

Results flagged for a closer look

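Among 50 groups of 4 arrays of the 10 genes, 3 held an array whose gap to its nearest neighbour, as a share of the range of the group, exceeded the 95% critical value of Dixon, which chance passes in about 1 of 20 groups. *Ripk2* in wt medium had a share of 0.834, with replicate 1 at a log2 signal of 7.97 and the next at 6.94. *Nlrc4* in MK2/3-/- LPS had a share of 0.9, with replicate 1 at 5.97 and the next at 9.12. *Pycard* in MK2/3-/- LPS had a share of 0.84, with replicate 4 at 12.32 and the next at 12.82.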

How the results depend on the processing

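In wt, MK2-/- and MK2/3-/- BMDM, 6, 5 and 9 of the 10 genes were called with LPS, and by the methods' t-test on linear values 4, 3 and 5 were, beside 9.28, 12.8 and 15.6% of all genes. Leaving out each array in turn gave 5 to 7, 4 to 5 and 7 to 9. *Nod2*, *Ripk2*, *Nlrp3* and *Casp4* in all genotypes, *Nod1* in wt and MK2/3-/- and *Aim2* in MK2/3-/- BMDM were called in each of 38 settings on the log2 scale, but the t-test on linear values lost *Nod1* in wt (adjusted p = 0.151) and MK2/3-/- (0.135) and *Casp4* in MK2-/- BMDM (0.0709). For MK2/3-/- against MK2-/- BMDM after LPS the count was 1 (*Nod1*) and became 0 under 75th percentile scaling (adjusted p = 0.0506), normexp background (0.0569), the compared groups only (0.602), the methods' t-test on log2 (0.709) and on linear values (0.818), the replicate block by culture (0.0557), without the 2 arrays that hold no gradient fit (0.206) and without both MK2/3-/- arrays of culture 1 (0.122), the last pair chosen after seeing the data. Leaving out each array in turn gave 0 to 1 there, 0 to 1 for MK2-/- against wt and for MK2/3-/- against wt BMDM after LPS, and 0 to 0 for the other comparisons of genotypes and the interactions. The replicate block by culture (0 genes for MK2/3-/- against MK2-/- BMDM after LPS) changed no other call of the 10 genes, and the block by slide column, added after seeing the data, changed none. Across genotypes the arrays share only a number by the labels: of 22 same-numbered pairs of a treatment, 17 had a correlation above 0.1 (median 0.373), against 15 of 66 pairs of different numbers (median -0.118). With only the compared groups or the methods' t-test on log2 values, the calls of *Nlrc5*, *Pycard* and *Casp1* in MK2/3-/- and of *Aim2* in wt BMDM were lost, with adjusted p from 0.0635 to 0.153, and by that t-test also *Aim2* in MK2-/- BMDM (0.05001). Over single genes, 4471 alternative values kept their direction and side of the threshold, 115 changed sign without being called in either fit (over 34 results, *Pycard* with LPS in wt BMDM among them), 59 lost a call, 5 gained one and 0 reversed while called. The cause was not tested.

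Scaling to the 75th percentile changed the share of higher genes among those called from 48.1 to 58.1% for LPS in wt BMDM, from 35.0% of 20 to 46.2% of 13 for MK2/3-/- against wt BMDM in medium and from 35.7% of 42 to 52.0% of 25 for MK2/3-/- against MK2-/- BMDM after LPS.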
